A study of Mus musculus with 12 samples.

Results

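The nuclear genes of oxidative phosphorylation were described by complex in mouse embryonic fibroblasts (MEFs) that lack Sirt6, or Sirt6 and RelA, and in wild-type (WT) cells, before and during treatment with TNF-α. They were chosen by name, as all symbols starting Ndufa, Ndufb, Ndufc, Ndufs or Ndufv (without the assembly factors Ndufaf), Uqcr, Cox4 to Cox8 or Atp5, together with Sdha to Sdhd and Cyc1. Of 16593 gene symbols on the array, 81 met this rule. The study took an intensity of 100 in any sample as detection, and 70 of the 81 passed it, among 6096 such genes in all. Complex I had 32 detected members, complex II 3, complex III 7, complex IV 13 and complex V 15. One of the 32, Ndufs5-ps, is a pseudogene symbol that the prefix takes in.

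Sirt6-/-RelA-/- and Sirt6-/- MEFs and WT MEFs were each measured untreated (0 h) and after TNF-α (20 ng/mL) for 1.5, 6 or 24 h, on 12 Illumina mouse bead arrays in all. The cultures came from littermate embryos of 13.5 days and had been passaged 4 times, and every array stands alone for its condition. Sirt6 is a chromatin deacetylase and RelA is a subunit of the transcription factor NF-κB, and the study asked how the loss of each changes gene expression under this stress signal. Each genotype is represented by 1 array per time point, and the labels do not say whether its 4 times came from 1 embryo, so effects of genotype and of the embryo or culture cannot be told apart.

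The respiratory chain passes electrons from NADH (complex I) and succinate (complex II) through complex III to oxygen at complex IV, pumping protons out of the mitochondrial matrix, and complex V, the ATP synthase, uses the returning protons to make ATP. Most of its subunits are encoded in the nucleus and imported, and a core set is encoded by mitochondrial DNA. The nuclear genes are known as housekeeping genes whose promoters often carry sites for NRF1, ETS factors such as GABP, YY1 and SP1, and several complex IV subunits have isoforms for muscle, lung or testis.

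The labels and the state of the cultures were looked at first. Sirt6 gave an intensity of at most 11.96 in Sirt6-/-RelA-/- cells and at most 5.88 in Sirt6-/- cells, against 37.6 to 44.2 in WT cells. Rela gave 172.5 to 186.6 in Sirt6-/-RelA-/- cells, with 1025 to 1446 for Sirt6-/- cells and 673.5 to 1303 for WT cells. All 11 fibroblast markers on the array were detected, but not at like levels. In Sirt6-/- against WT cells 2 were higher (18.2%), Dcn (0.61 on the log2 scale) and Sparc (0.35). Lower were 5 (45.5%), among them Pdgfra (-2.79), Lum (-2.27), Col1a2 (-1.32) and Thy1 (-0.81), and Vim, Col3a1, Pdgfrb and S100a4 were not called. Of all genes tested, 25.1% were higher and 17.0% lower. In Sirt6-/-RelA-/- against WT cells 1 was higher (9.09%) and 4 lower (36.4%), against 15.3% and 5.31% of all genes. The summed intensity of 20 skeletal muscle markers ranged between 7043 and 8818 over the Sirt6-/-RelA-/- arrays, between 11010 and 13090 over the Sirt6-/- arrays and between 2967 and 4322 over the WT arrays. Most of each sum was Acta1, at intensities of 6053 to 7828 with Sirt6 and RelA lost, 6215 to 7569 with Sirt6 lost and 2607 to 3879 for WT arrays. Actc1, Myl1, Mylpf, Tnnc2 and Tnnt1 stayed under 26 in both Sirt6-/-RelA-/- and WT cells, and the median log2 difference of the list between these was 0.194. Des had 413 to 564 in Sirt6-/-RelA-/- and 54.2 to 119 in WT cells, and Chrna1 136 to 253 and 48.4 to 57.2. Of 10 tested markers, 4 (40%) were higher in Sirt6-/-RelA-/- than in WT cells and 0 lower, against 15.3% and 5.31% of all genes. As 7 of the 10 reached the detection value on no WT array, this count was partly set by that filter. For 9 macrophage and blood cell markers the sum ranged between 345 and 551, 214 and 526, and 1008 and 2085 over the Sirt6-/-RelA-/-, Sirt6-/- and WT arrays. Lyz2 was the largest part of each sum, at 189 to 283, 134 to 373 and 637 to 1513 in the same order. The muscle markers Myod1, Myf5, Myf6, Ckm and Mymk and the blood cell markers Ptprc, Itgam, Fcer1g and Hba-a1 stayed at or below the floor of 16 on every array. The Y-linked gene Eif2s3y had intensities of 768 to 910 in Sirt6-/-RelA-/- cells, at most 2.56 in Sirt6-/- cells and at most -0.97 in WT cells. The X-linked gene Xist had at most 11.2, 71.3 to 97.2 and 82.6 to 120.7 in these. Both genes set Sirt6-/-RelA-/- cells apart from the others, so effects of sex and genotype cannot be told apart in comparisons with them. The part of these differences in the values below was not tested, and in such bulk RNA fewer cells of a type and less RNA per cell cannot be told apart. One array stood apart. The WT 0 h array correlated with the other WT arrays at a mean r of 0.967 over all 6096 genes, against 0.982 to 0.991 for the other 11 arrays within their own genotypes. Its values enter every comparison with WT cells and with 0 h, and the study's own clustering used that array as the baseline for all others.

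Promoter sequences were available from RefSeq (GRCm38.p6) for 59 of the 70 members, as windows running from 250 bases before to 50 bases after a gene start. The upstream 250 bases of 3 complex IV genes are shown here, because Cox6b2 and Cox6b1, a testis and a general isoform of the same subunit, differed in their pattern over the genotypes, and because Cox6a1 carries 3 of the motifs searched. Capitals mark matches on either strand to the motifs GCGCA, any base, GCGC (NRF1), CCGGAAG (ETS), AAGATGGCG (YY1), GGGCGG (SP1) and to the NF-κB consensus. All 3 lie on the minus strand, Cox6b2 at chr7:4753095-4753344, Cox6b1 at chr7:30626115-30626364 and Cox6a1 at chr5:115348959-115349208, and are written 5′ to 3′ towards the gene start.
Cox6b2: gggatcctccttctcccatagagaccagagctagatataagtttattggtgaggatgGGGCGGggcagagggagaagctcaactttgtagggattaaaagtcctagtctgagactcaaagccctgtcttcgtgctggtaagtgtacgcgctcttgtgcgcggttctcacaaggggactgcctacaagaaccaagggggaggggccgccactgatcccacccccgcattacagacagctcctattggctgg
Cox6b1: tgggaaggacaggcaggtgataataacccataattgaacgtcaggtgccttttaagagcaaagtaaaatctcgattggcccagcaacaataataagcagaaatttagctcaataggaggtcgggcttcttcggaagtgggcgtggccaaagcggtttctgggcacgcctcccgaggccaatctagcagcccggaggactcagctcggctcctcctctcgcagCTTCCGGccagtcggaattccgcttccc
Cox6a1: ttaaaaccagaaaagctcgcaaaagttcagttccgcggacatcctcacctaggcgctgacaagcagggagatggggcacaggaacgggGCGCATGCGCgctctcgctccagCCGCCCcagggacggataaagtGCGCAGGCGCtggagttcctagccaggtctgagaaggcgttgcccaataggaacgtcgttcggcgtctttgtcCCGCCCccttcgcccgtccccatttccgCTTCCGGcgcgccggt

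In the Cox6b2 window the search found 1 SP1 match, starting 193 bases before the gene start. In Cox6b1 it found 1 ETS match, starting 28 bases before it, and in Cox6a1 it found NRF1 matches at 162 and 117 bases, SP1 matches at 139 and 44 bases and an ETS match at 16 bases. Over the 59 members with a window, the NRF1 motif was found in 13 (22.0%), against 13.0% of the 5033 detected genes and 7.17% of the 17492 protein-coding genes with a window. The YY1 motif was found in 7 members (11.9%), against 4.13% and 2.14%, and the ETS motif in 15 (25.4%), against 23.1% and 12.9%. The SP1 motif stood in 27 members (45.8%), against 72.4% and 49.2%. The NF-κB consensus was matched in 1 member, Sdhb (1.69%), against 6.24% of detected and 5.53% of all genes. These shares describe the windows only, and a match is not a bound site.

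The members varied little from array to array. Of the 70, 55 had a mean log2 intensity of at least 9.87, as had 1469 other genes. The median standard deviation of a member over the 12 arrays was 0.194 on the log2 scale, against 0.238 for all detected genes. In 62 of 70 members (88.6%) the highest and lowest array differed by less than 1 on this scale, as they did in 70.6% of all genes. The spread was not compared with that of the 1469 other bright genes, so a part of brightness in it was not tested. The catalytic β subunit gene Atp5b ranged over the 12 arrays between 11880 and 19180, and Atp5g3, 1 of the genes for the proton-carrying c ring, between 11000 and 16120. In complex IV, Cox8a ranged between 5590 and 8294 and Cox5b between 4739 and 8045. In complex III, Uqcr10 had 4622 to 7391 and the hinge protein gene Uqcrh 4425 to 6686. Each of these genes stayed above the detection value on all arrays. In complex I, Ndufa13 had 5198 to 8611 and Ndufb6 3377 to 4741. In complex II, the membrane anchor gene Sdhc had 1062 to 1756 and the iron-sulfur subunit gene Sdhb 843 to 1433. The members with the widest range were Cox6b2 (2.60 on the log2 scale), the complex I gene Ndufb2 (1.50) and Ndufv1 (1.28), which encodes the NADH-binding subunit. The core complex III gene Uqcrc2 had the narrowest, 0.31.

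**Figure D1:**
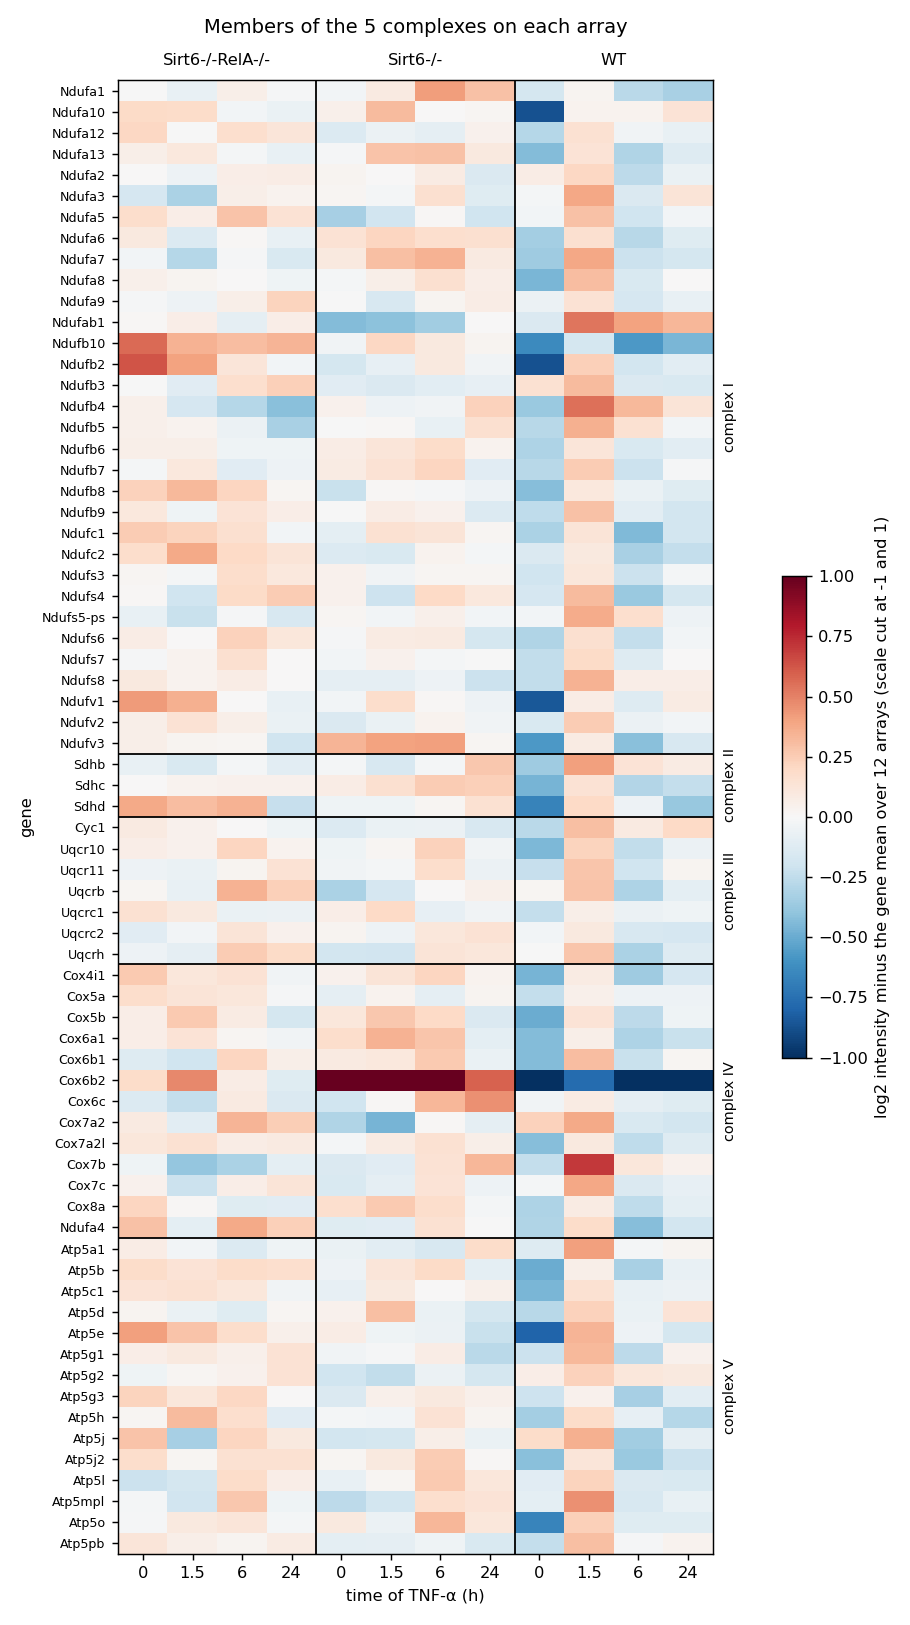
Each row is 1 of the 70 detected members, grouped by complex, and each column is 1 array, by genotype and hours of TNF-α. Colour gives log2 intensity minus the gene's mean over the 12 arrays, from blue (lower) to red (higher), cut at -1 and 1. Most rows stay pale, Cox6b2 is the darkest row, and the WT 0 h column is blue and the WT 1.5 h column red for most members.

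Loss of Sirt6 was looked at first by comparing Sirt6-/- with WT cells over the 4 times. At an adjusted p under 0.05 by limma, 9 members were higher and 2 lower in Sirt6-/- cells, which is 15.7% of 70, against 42.2% of all genes tested (25.1% higher, 17.0% lower). The median log2 difference over members was 0.109 (0.059 over all genes), and it was 0.044 with arrays centred on their medians and -0.026 after quantile normalization. The 11 calls were split 9 higher and 2 lower as deposited, 7 and 2 of 9 after centring, and 5 and 5 of 10 after quantile normalization. The excess of higher members thus depends on the scaling, as it does for all genes. Of all called genes, 59.6% were higher as deposited, 50.4% after centring and 50% after quantile normalization. After these scalings 41.4% and 41.5% of all genes were called. The 95% interval of the difference lay within 1.5-fold in either direction for 54 of 70 members (77.1%), as it did for 57.5% of all genes. A p here measures how steady a difference was over the 4 times, not its variation between embryos. Counts fell to 4 without the 6 h arrays (3 higher, 1 lower) and 7 without the 24 h arrays. Without the WT 0 h array 11 were called, 7 higher and 4 lower, with a median of 0.027. The shares of all genes called in these fits are not given here.

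Cox6b2, the testis isoform of the COX6B subunit, had the largest difference of any member. Its intensities were 232, 232, 236 and 161 in Sirt6-/- cells at 0, 1.5, 6 and 24 h, against 48.8, 62.5, 45.4 and 38.9 in WT cells. Every Sirt6-/- array was above every WT array. This came to a log2 difference of 2.14 (adjusted p = 7.38e-09 by limma, standard error 0.10), with the same direction at each time. Cox6b2 reached the detection value of 100 on no WT array, so it entered the test through the knockout arrays where it was high. A second Cox6b2 probe stayed below the detection value on every array, at 1.50 to 25.2, and gave a difference of 0.25. The Cox6b2 result in each comparison thus rests on 1 probe. Its partner Cox6b1, the isoform of most tissues, had intensities of 3954 to 4974 in Sirt6-/- cells and 3074 to 5129 in WT cells, which overlap, with a difference of 0.18 (95% interval -0.13 to 0.49, adjusted p = 0.346). The other isoforms known from muscle or heart stayed dim. The highest intensity on any array was 25.4 for Cox6a2, 29.1 for Cox7a1 and 16.9 for Cox8b. Of the 20 skeletal muscle markers 10 were tested, and 6 of these reached the detection value in Sirt6-/- cells only, so that a count of higher markers was largely set by that filter. Of those detected on at least 1 WT array, Acta1 was higher by 1.18 in Sirt6-/- than in WT cells, Des by 3.72 and Myl4 by 3.51. The part of these cells' muscle markers in the Cox6b2 result was not tested.

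Complex I had 5 members higher and 1 lower in Sirt6-/- cells. Ndufv3, a small subunit of the NADH-oxidizing flavoprotein part, had 2309, 2406, 2426 and 1850 at 0, 1.5, 6 and 24 h in Sirt6-/- cells, against 1222, 1926, 1361 and 1627 in WT cells. The groups overlapped, since the Sirt6-/- 24 h array was below the WT 1.5 h array. The difference was 0.56 (standard error 0.13, adjusted p = 0.00402), a second probe gave 0.49, and the call was lost with no filter on dim genes (adjusted p = 0.0514). Ndufb10, an accessory subunit of the membrane arm, had 308, 365, 339 and 322 in Sirt6-/- cells, against 204, 280, 213 and 230 in WT cells. These values did not overlap, and the difference was 0.53 (standard error 0.11, adjusted p = 0.00200). Ndufa13, Ndufa1 and Ndufa6, also accessory subunits, were higher by 0.35, 0.38 and 0.32, with adjusted p of 0.0215, 0.0193 and 0.0410. All 3 calls were lost after quantile normalization and without the 6 h arrays, those of Ndufa1 and Ndufa6 also without the 24 h arrays, and that of Ndufa6 under 9 of 15 alternative settings, the WT 0 h array left out among them. Ndufa1 is X-linked and its probe had 2898 to 3926 in Sirt6-/- cells and 2354 to 2996 in WT cells.

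The fall within complex I was that of Ndufab1, which encodes the mitochondrial acyl carrier protein, a subunit that also serves fatty acid synthesis. It had 125, 127, 133 and 169 in Sirt6-/- cells at the 4 times, against 153, 245, 224 and 213 in WT cells. The groups overlapped only through the Sirt6-/- 24 h and the WT 0 h arrays. The difference was -0.58 (standard error 0.13, adjusted p = 0.00269). Core subunits of complex I had differences that did not pass, such as Ndufs3 (0.09), Ndufs7 (0.04), Ndufs8 (-0.17), Ndufv1 (0.23) and Ndufv2 (-0.06). Ndufs8 was called lower without the WT 0 h array (-0.28, adjusted p = 0.0307 by limma) and after quantile normalization (-0.28, adjusted p = 0.0476).

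In complex II, Sdhc had 1551, 1641, 1756 and 1737 in Sirt6-/- cells, against 1062, 1622, 1198 and 1246 in WT cells. All but 1 of the Sirt6-/- values were above all WT values, and the difference was 0.40 (standard error 0.11, adjusted p = 0.0117), a call lost with no filter and without the 6 or 24 h arrays. Sdhb and Sdhd, the other membrane anchor, had differences of -0.05 and 0.25 that did not pass. No member of complex III passed (0 of 7). At an unadjusted p under 0.05 by limma there were also 0, against 49.7% of all genes. Differences ran from -0.19 for Cyc1, the gene for cytochrome c1, to 0.17 for Uqcr10, and all 7 intervals lay within 1.5-fold. Cyc1 was called lower without the WT 0 h array (-0.31, adjusted p = 0.0164 by limma) and after quantile normalization (-0.30, adjusted p = 0.0345).

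In complex IV, Cox6a1 and Cox4i1, the isoforms that most tissues use, passed beside Cox6b2. Cox6a1 had 6597, 7467, 7112 and 5485 in Sirt6-/- cells, against 4334, 6103, 4740 and 5015 in WT cells. Its groups overlapped through the Sirt6-/- 24 h and WT 1.5 h arrays, the difference was 0.40 (standard error 0.11, adjusted p = 0.00900) and a second probe gave 0.33. Without the 6 h arrays it was 0.34 (adjusted p = 0.0910). Cox4i1 was higher by 0.33 (adjusted p = 0.0415), a call that was lost under 9 of 15 alternative settings. Cox8a, at 0.29, missed the threshold (adjusted p = 0.0507), and the other general subunits Cox5a, Cox5b and Cox6c had 0.04, 0.27 and 0.19. Cox7a2l, which takes part in joining complex IV to complex III, had 0.25, and Ndufa4, counted here with complex IV, had 0.16, neither passing. Cox7a2, the only detected isoform of its subunit, had 197 to 274 in Sirt6-/- cells and 239 to 353 in WT cells, a difference of -0.28 (adjusted p = 0.175).

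In complex V, Atp5g2 was the only member called. It had 692, 670, 760 and 701 in Sirt6-/- cells, against 832, 932, 860 and 848 in WT cells, without overlap, and its difference was -0.30 (adjusted p = 0.0213, standard error 0.09). The call was lost without the 1.5, 6 or 24 h arrays and in a fit of the 8 arrays of the 2 genotypes, with adjusted p of up to 0.137. The other genes for the same c subunit, Atp5g1 and Atp5g3, had differences of -0.03 and 0.16 that did not pass. Of the 11 called members, Cox6b2, Ndufb10 and Ndufab1 were called under all 15 alternative settings, and Ndufb10, Cox6b2 and Atp5g2 were the 3 members whose arrays did not overlap between the genotypes, against 34.9% of all genes.

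**Figure D2:**
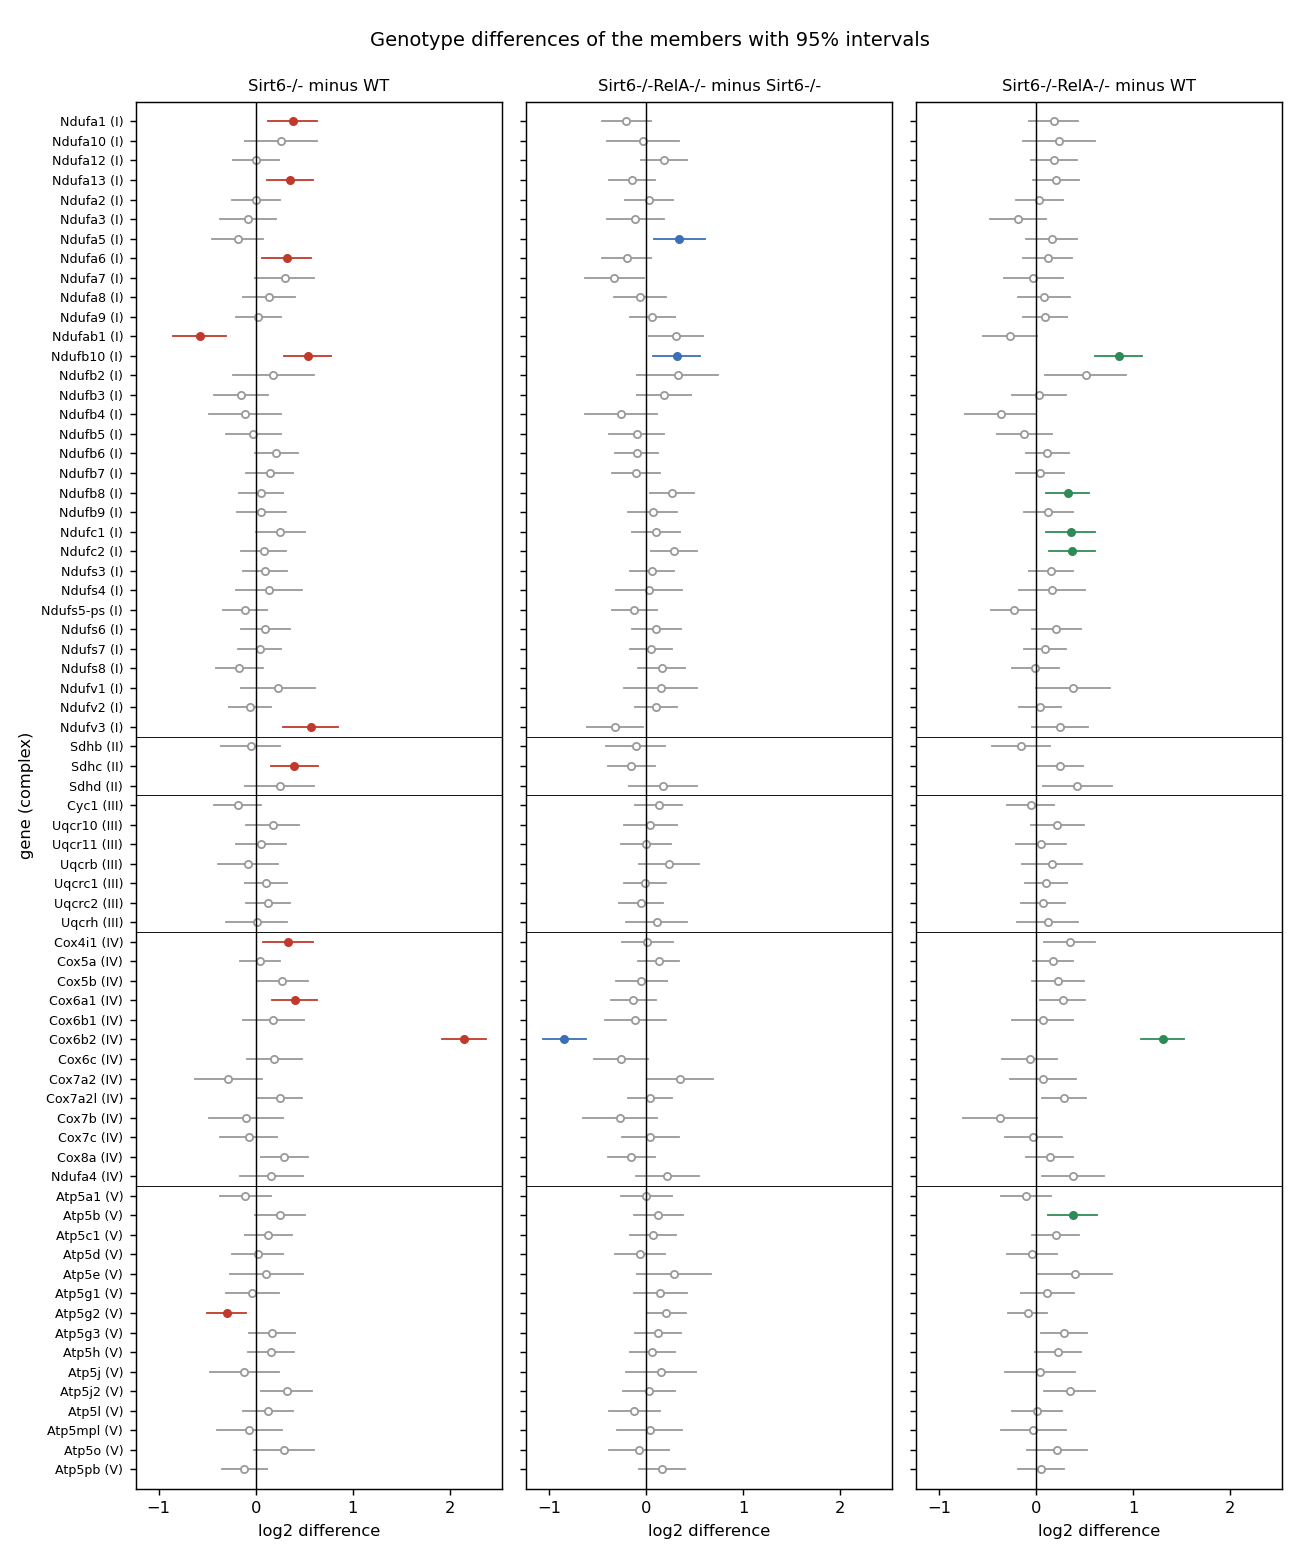
For each of the 70 members, points give the log2 difference between genotypes over the 4 times and lines its 95% interval, from the left for Sirt6-/- minus WT, Sirt6-/-RelA-/- minus Sirt6-/- and Sirt6-/-RelA-/- minus WT. Filled coloured points passed an adjusted p of 0.05 (11, 3 and 6 members) and open grey points did not. Cox6b2 lies apart at 2.14, -0.84 and 1.30.

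Loss of RelA on top of Sirt6 was looked at by comparing Sirt6-/-RelA-/- with Sirt6-/- cells, which share the Sirt6-/- arrays with the comparison above. By limma 2 members were higher and 1 lower, 4.29% of 70, against 31.1% of all genes tested. The median over members was 0.042 (0.017 over all genes), 0.050 with centred arrays and -0.004 after quantile normalization. The calls were 4 higher and 1 lower after centring and 2 higher and 3 lower after quantile normalization. Of all genes, 32% and 31.4% were called under these settings. Cox6b2 was lower, with 121, 149, 112 and 98.2 in Sirt6-/-RelA-/- cells at 0, 1.5, 6 and 24 h, against 232, 232, 236 and 161 in Sirt6-/- cells. The arrays did not overlap, and the difference was -0.84 (adjusted p = 5.62e-05, standard error 0.10), downward at each time. Of the muscle markers that were also detected outside Sirt6-/- cells, Des and Myl4 were lower, with log2 differences of -1.05 and -3.01, while Acta1 and Chrna1 had -0.00 and 0.01.

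Ndufb10 was higher, with 469, 402, 391.7 and 400 in Sirt6-/-RelA-/- cells, all above the 308 to 365 of Sirt6-/- cells. Its difference was 0.32 (standard error 0.11, adjusted p = 0.0482). Ndufa5, an accessory subunit of the matrix arm, had 1660, 1538, 1796 and 1624 in Sirt6-/-RelA-/- cells, against 1169, 1287, 1480 and 1282 in Sirt6-/- cells. These arrays did not overlap, and the difference was 0.35 (standard error 0.12, adjusted p = 0.0439). A dimmer second probe of Ndufa5 gave -0.08, and the call was lost when probes were averaged. Both calls were also lost when any 1 time was left out, so that Cox6b2 alone was called in each of those fits. Without the WT 0 h array 8 members were called, 6 higher and 2 lower. That array lies outside this comparison but enters the estimate of the spread. In a fit of the 8 arrays of the 2 genotypes 11 members were called, 8 higher and 3 lower. The shares of all genes called in these fits are not given here, so the counts are not read as a result about the members. Members called in Sirt6-/- against WT cells did not pass here apart from Cox6b2 and Ndufb10, such as, with the adjusted p in parentheses, Ndufv3 at -0.32 (0.0864), Sdhc at -0.15 (0.325), Cox6a1 at -0.13 (0.392) and Cox4i1 at 0.01 (0.940). Ndufab1 and Atp5g2 had 0.31 (0.0820) and 0.21 (0.106). The X-linked genes Ndufa1 and Cox7b had -0.20 (0.216) and -0.26 (0.275), between genotypes that also differed in Xist and Eif2s3y. No member of complexes II, III or V was called (0 of 25, and 1 at an unadjusted p under 0.05 by limma, against 42.1% of all genes). The interval lay within 1.5-fold for 60 of 70 members, 85.7%, as it did for 66% of all genes. Arrays did not overlap in 12 of 70 members, 8 of them higher in Sirt6-/-RelA-/- cells, against 33.4% of all genes.

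Between Sirt6-/-RelA-/- and WT cells, 6 members were higher and 0 lower by limma, 8.57% of 70, against 20.6% of all genes (15.3% higher, 5.31% lower). The median over members was 0.123 (0.074 over all genes), 0.066 after centring and -0.021 after quantile normalization. The calls were 3 higher and 0 lower after centring and 2 higher and 1 lower after quantile normalization. Of all genes, 18.6% and 15.9% were called under these settings. This comparison shares its arrays with both others. Cox6b2 had 98.2 to 149 in Sirt6-/-RelA-/- cells and 38.9 to 62.5 in WT cells, without overlap, a difference of 1.30 (standard error 0.10, adjusted p = 2.81e-06). Here too Cox6b2 entered the test only through knockout arrays, since no WT array reached the detection value. Ndufb10 had 391.7 to 469 in Sirt6-/-RelA-/- cells, against 204 to 280 in WT cells, also without overlap, a difference of 0.85 (standard error 0.11, adjusted p = 0.000230). Ndufb10 was the only member besides Cox6b2 with a difference over 1.5-fold. Atp5b had 18490 to 19090 in Sirt6-/-RelA-/- cells and 11880 to 17510 in WT cells and a difference of 0.38 (adjusted p = 0.0385), which came to 0.00 after quantile normalization. The membrane arm genes Ndufc2, Ndufc1 and Ndufb8 had differences of 0.37, 0.36 and 0.32 (adjusted p = 0.0288, 0.0443 and 0.0426), and a second probe of Ndufc1 gave -0.16. Cox6b2 and Ndufb10 were called under all 15 alternative settings, and the other 4 each lost their call under 6 or more. Cox6b2, Ndufb10, Ndufc2 and Atp5b were the 4 members whose arrays did not overlap, against 20.7% of all genes. The interval lay within 1.5-fold for 55 of 70 members (78.6%, against 73.1% of all genes).

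**Figure D3:**
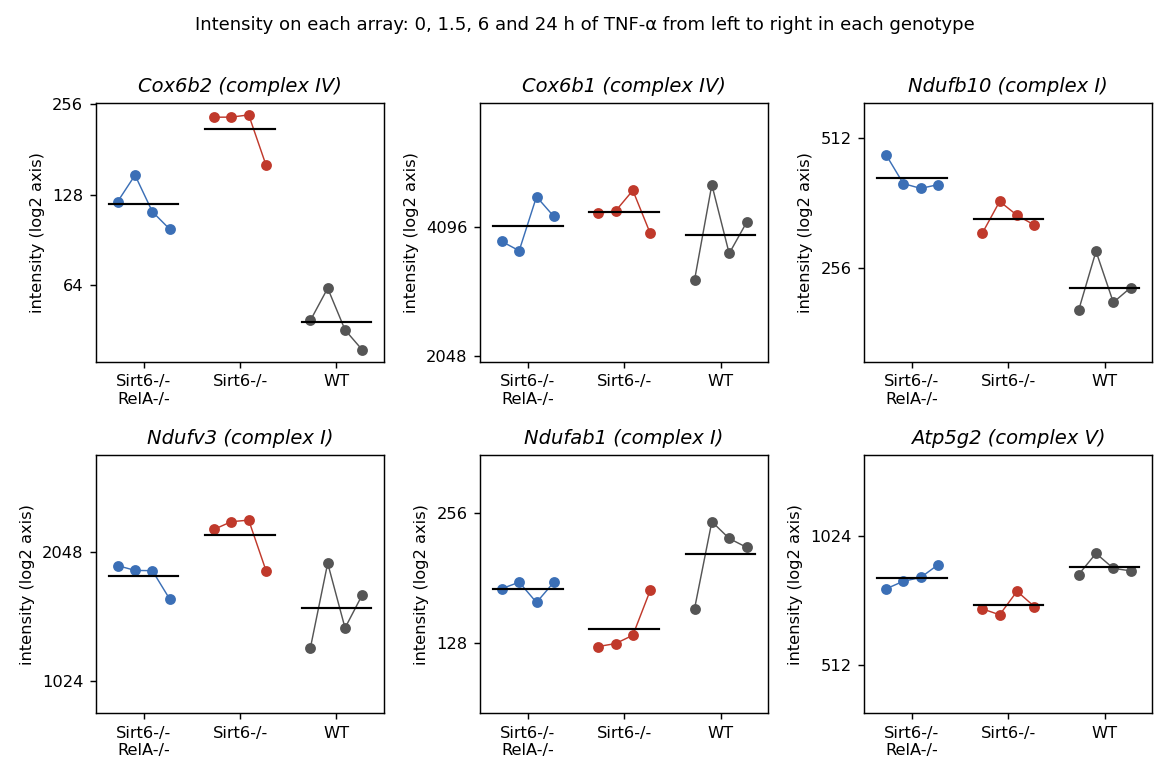
Intensity on each array (log2 axis) for 6 members, with the 0, 1.5, 6 and 24 h arrays from left to right within each genotype and black bars at the mean log2 level of the 4 arrays. Cox6b2 is highest in Sirt6-/- cells, Ndufb10 in Sirt6-/-RelA-/- cells, and Ndufab1 and Atp5g2 are lower in Sirt6-/- than in WT cells, while the values of Cox6b1 overlap between all genotypes.

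The response to TNF-α was fitted over the 3 genotypes together. No member was called at any time. At 1.5 h this was 0 of 70, against 0.262% of all genes, at 6 h 0 of 70, against 0.886%, and at 24 h 0 of 70, against 2.15% (0.869% higher, 1.28% lower). At an unadjusted p under 0.05 by limma there were 3, 0 and 2 members at the 3 times. The median change over members was 0.167 at 1.5 h, 0.092 at 6 h and 0.056 at 24 h, against 0.053, 0.020 and 0.022 over all genes. At these times 68, 60 and 52 of 70 members were above 0, against 3736, 3335 and 3361 of all 6096 genes. Without the WT 0 h array the member medians were 0.071, -0.001 and -0.016.

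Within each genotype the arrays were also set against that of 0 h. In Sirt6-/-RelA-/- cells the member medians were -0.057, -0.012 and -0.052 on the log2 scale at 1.5, 6 and 24 h, and in Sirt6-/- cells they were 0.066, 0.133 and 0.056. In WT cells 70 of 70 members were higher at 1.5 h than at 0 h, against 62.5% of all genes. Of the 1469 other genes with a mean of at least 9.87, 76.8% were. The member median was 0.507 on the log2 scale, against 0.128 over all genes and 0.248 over those 1469. It was 0.123 at 6 h and 0.209 at 24 h. By complex the median at 1.5 h was 0.471 for complex I, 0.765 for complex II, 0.296 for complex III, 0.484 for complex IV and 0.540 for complex V. These are differences of single arrays without a test. Both WT arrays stood out. The WT 0 h array held the lowest value of 40 of 70 members (57.1%, against 26% of all genes), and the WT 1.5 h array held the highest value of 31 (44.3%, against 10.3%). After quantile normalization the median change at 1.5 h in WT cells was 0.263, with 60 of 70 members higher. The share of all genes was not counted there.

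**Figure D4:**
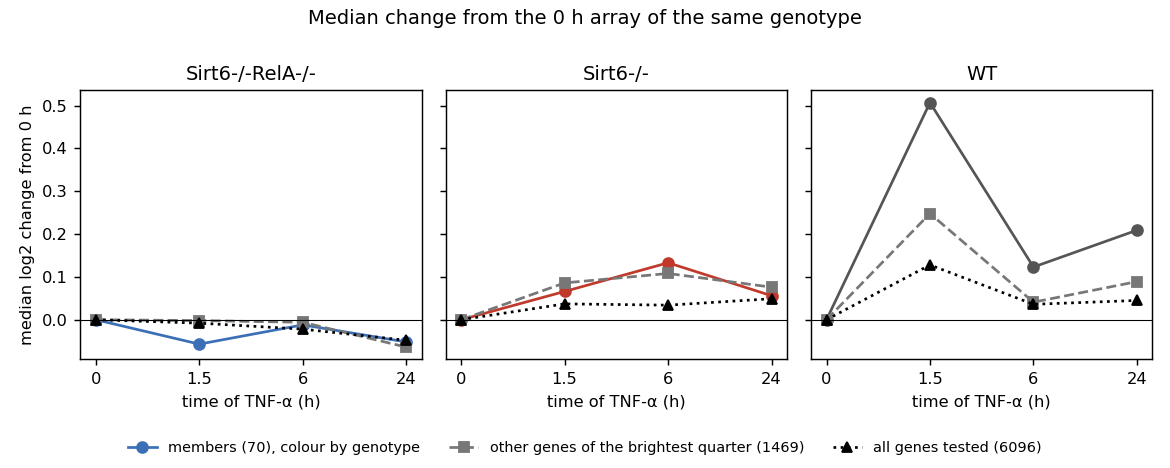
Median log2 change from the 0 h array of the same genotype at 1.5, 6 and 24 h of TNF-α, for the 70 members (solid), the 1469 other genes with a mean log2 intensity of at least 9.87 (dashed) and all 6096 genes tested (dotted). Members reach 0.507 at 1.5 h in WT cells and stay between -0.057 and 0.133 in both knockout genotypes.

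In several members the WT 0 h value was the one that stood out. Ndufa10, an accessory subunit of complex I, had 2841, 2819, 2442 and 2370 in Sirt6-/-RelA-/- cells at 0, 1.5, 6 and 24 h, and 2570, 3095, 2498 and 2515 in Sirt6-/- cells. In WT cells it had 1362, 2543, 2554 and 2737, where the 0 h value stands apart. Ndufv1 had 4127, 3918, 3065 and 2915 in Sirt6-/-RelA-/- cells, 3014, 3459, 3085 and 2953 in Sirt6-/- cells and 1704, 3223, 2807 and 3239 in WT cells. For the complex V gene Atp5e the Sirt6-/-RelA-/- values were 397, 364, 338 and 310, the Sirt6-/- values 315, 291, 287 and 256 and the WT values 171, 379, 289 and 265. All 3 genes thus had their lowest value of the 12 on the WT 0 h array. Cox7b had its highest value on the WT 1.5 h array, with 388, 746, 496 and 472 in WT cells. Cox6c had 3355, 3868, 4835 and 5278 in Sirt6-/- cells, against 3756, 4063, 3615 and 3531 in WT cells. Its order by time was upward in Sirt6-/- cells but not in Sirt6-/-RelA-/- cells, which had 3502, 3258, 4096 and 3473. Uqcrc2, Ndufa9 and Ndufs3 had the narrowest ranges over the 12 arrays, 0.31, 0.39 and 0.39 on the log2 scale.

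The 3 TNF times of each genotype were set against its 0 h array in 1 model. After adjustment limma called 0 members in Sirt6-/-RelA-/- cells and 0 in Sirt6-/- cells, against 0% and 0.361% of all genes tested. At an unadjusted p under 0.05 by limma there was 1 member each, against 205 and 278 of all 6096 genes. In WT cells 7 of 70 members were called, all of them higher, against 13.1% of all genes called in either direction. These were Ndufa10 (0.94), Ndufv1 (0.86), Ndufb2 (0.85), Atp5e (0.84), Ndufb4 (0.71), Atp5o (0.66) and Cyc1 (0.47). The 0 h side of this comparison is only the WT 0 h array, which stood apart. An effect of TNF-α thus cannot be told here from a deviation of that array. The difference between genotypes in this change was tested itself. For Sirt6-/- against WT cells 0 members passed, against 0% of all genes, with a member median of -0.215. At an unadjusted p under 0.05 by limma there were 6 of 70 members, against 913 of all 6096 genes. For Sirt6-/-RelA-/- against Sirt6-/- cells 0 passed, against 0.0164% of all genes, with a median of -0.122. There was 1 such member at the unadjusted threshold, against 186 of all genes. Between Sirt6-/-RelA-/- and WT cells 0 passed, against 0.722% of all genes, with a median of -0.312 and a lowest adjusted p of 0.0504 by limma. Here 12 of 70 members were at an unadjusted p under 0.05 by limma, against 1410 of all 6096 genes. A difference in the response of the members between genotypes was thus not shown, and each of these tests against WT cells rests on the single WT 0 h array.

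Genotype differences at single times, which have no test, went both ways against WT cells. Sirt6-/- minus WT had a median over members of 0.230 at 0 h, -0.209 at 1.5 h, 0.311 at 6 h and 0.095 at 24 h, and Sirt6-/-RelA-/- minus WT had 0.356, -0.171, 0.286 and 0.105. Sirt6-/-RelA-/- minus Sirt6-/-, which involves no WT array, had 0.103, 0.010, 0.006 and 0.018. At 0 h 58 of 70 members were higher in Sirt6-/- than in WT cells and at 1.5 h 18 were. Of the 1469 other genes with a mean of at least 9.87, 63% and 49.3% were. Their medians at the 4 times were 0.140, -0.008, 0.238 and 0.148 for Sirt6-/- minus WT. For Sirt6-/-RelA-/- minus WT they were 0.299, 0.065, 0.245 and 0.139. Rises against WT cells at 0, 6 and 24 h thus also appeared in other bright genes.

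Other genes of mitochondrial energy production were read beside the members. Their counts stand against the same shares of all genes tested as above, 25.1% higher and 17.0% lower in Sirt6-/- against WT cells, 16.1% higher and 15.0% lower in Sirt6-/-RelA-/- against Sirt6-/- cells, and 15.3% higher and 5.31% lower in Sirt6-/-RelA-/- against WT cells. Of 65 detected mitochondrial ribosomal protein genes, which serve the translation of the subunits encoded in mitochondria, 0 were higher and 20 lower (30.8%) in Sirt6-/- than in WT cells (median -0.142), among them Mrpl40 (-0.77) and Mrpl47 (-0.53). With RelA lost as well, 10 of the 65 (15.4%, near the share of all genes) were higher than in Sirt6-/- cells and 0 lower (median 0.154). Set against WT cells, 2 (3.08%) were higher and 3 (4.62%) lower (median 0.032), but 0 were higher and 6 lower after centring (median -0.024) and 0 higher and 7 lower without the WT 0 h array (median -0.046). For Sirt6-/- against WT cells the counts were 0 higher and 22 lower after centring, and 0 higher and 27 lower after quantile normalization. At 1.5 h in WT cells their median change was 0.447, with 62 of 65 higher than at 0 h, against 62.5% of all genes. Of 12 nuclear regulators of mitochondrial biogenesis, 1 was higher in Sirt6-/- than in WT cells, the orphan receptor gene Esrra (0.47), and 5 (41.7%) were lower. These were Polg (-0.49), the mitochondrial DNA polymerase, Tfb1m (-0.44), the DNA-packaging factor Tfam (-0.38), Ssbp1 (-0.36) and Nrf1 (-0.30). Sirt6-/-RelA-/- cells had 4 of the 12 (33.3%) higher than Sirt6-/- cells, Nrf1 (0.43) among them, and 0 lower, with 5 higher after centring and 2 after quantile normalization. In that genotype 0 were called either way against WT cells.

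Of 35 detected assembly factors of the complexes, 7 were higher (20%, under the share of all genes) and 1 lower (2.86%) in Sirt6-/- than in WT cells, and 6 were higher and 5 lower after centring. The largest rises were those of the complex I factor Timmdc1 (0.89) and the complex V factor Tmem70 (0.60), and the fall was that of Ndufaf7 (-0.62). Sirt6-/-RelA-/- cells had 4 higher (11.4%) and 3 lower (8.57%) than Sirt6-/- cells, with Timmdc1 at -0.87, and 4 higher (11.4%) and 0 lower than WT cells. Of 11 electron carriers and entry points, 2 (18.2%) were higher in Sirt6-/- than in WT cells, Etfb (0.42) and Coq9 (0.38), and 2 (18.2%) lower, Gpd2 (-0.39) and Dhodh (-0.33). Coq9, which serves coenzyme Q synthesis, and Dhodh, which feeds electrons from pyrimidine synthesis, had differences of -0.76 and 0.65 between Sirt6-/-RelA-/- and Sirt6-/- cells, both called. Of 14 genes of the TCA cycle and pyruvate dehydrogenase, 1 (7.14%) was higher in Sirt6-/- than in WT cells, Pdhb (0.31), and 0 lower, and 0 were called either way after centring or without the WT 0 h array. At 1.5 h in WT cells this list had a median change of -0.016, with 7 of 14 higher than at 0 h, against 62.5% of all genes. No subunit encoded by mitochondrial DNA had a named probe among those used.

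The 11 members that did not reach the detection value were not tested. Cox4i2, Cox7b2 and Cox8c, the lung or testis isoforms of their subunits, had at most 4.11, 0.90 and 2.59 on any array. Among the genes of general subunits, Ndufb11 had at most 79.8, Uqcrfs1, which encodes the Rieske iron-sulfur protein, 29.3, Atp5k 22.8, the large complex I subunit gene Ndufs1 5.66 and Uqcrq 5.05. Of the 70 detected members, 11 had further probes that reached it, and 13 of these 14 probes gave a Sirt6-/- minus WT difference within 0.25 of the brightest one. The largest gap was that of a dim probe of Sdhb, which differed by 0.43. A width of 0.25 exceeds the median absolute difference of the members, 0.148, so probes within it need not agree in direction or size. Another Sdhb probe within it gave 0.14, against -0.05 for the brightest. The other 2 genotype comparisons were not counted in this way.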

How the data were processed

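Cy5-labelled cRNA from MEFs had been hybridised to 12 Illumina mouse bead arrays. The deposited values were linear intensities from which the authors had subtracted background, with scaling, in GenomeStudio (version not given in the sources used here), and 17.7% of them were negative. A second, non-normalized table was not used, since nothing ties its 12 columns of signal to single samples. Of 25697 probes, 23978 had 1 gene symbol.

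Intensities were raised to a floor of 16 and log2-transformed, the brightest probe stood for each gene, and genes reaching 100 on any array were tested. Genotype and time were fitted as additive terms with limma 3.58.1 in R 4.3.3, on 6 residual degrees of freedom and a prior of 6.86, with Benjamini-Hochberg adjustment over all genes tested. A second limma fit let the change from 0 h differ between genotypes. With 1 array per condition, the number of arrays limits the precision, and the spread is that of genotype differences over the 4 times. The fit was tested on simulated data. Promoter windows came from RefSeq.

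Members and lists were chosen with earlier results of these data known. Named genes were the called members with the largest differences of the same sign at all 4 times, the 2 brightest per complex, isoform groups, the Sdh genes and Cyc1, and the 2 largest changes each way of other lists. Other genes, such as those shown for time courses or spread, were chosen after their values were seen. Alternatives were another scaling (median centring, quantile), floor, offset, detection value, probe rule, prior, only the 8 arrays compared, and leaving out the WT 0 h array, each time or, for TNF-α, each genotype. Figures were drawn with matplotlib 3.10.9.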

Additional observations from a re-analysis of the deposited data

Results flagged for a closer look

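In 8 of 99 groups of 4 arrays, 1 array lay further from the other 3 than Dixon's test allows at its 95% level, where chance gives about 1 in 20 groups. The 4 arrays of a group are 4 times and not replicates, so such a value can belong to its time. All values here are log2 intensities. In WT cells the median over complex III was 11.852 at 1.5 h, with 11.583 to 11.593 at the other times, and that over complex IV was 12.294 at 1.5 h, with 11.793 to 11.875. In Sirt6-/- cells Cox6b2 was 7.327 at 24 h, with 7.857 to 7.883 at the other times. In Sirt6-/-RelA-/- cells Ndufb10 was 8.874 at 0 h (others 8.614 to 8.651) and Sdhc was 10.523 at 0 h (others 10.561 to 10.564). Uqcr10 was 12.835 at 6 h in the same cells (others 12.659 to 12.688). At 24 h Ndufv3 was 10.634 (others 10.853 to 10.893) and Sdhd was 9.346 (others 9.890 to 9.959).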

How the results depend on the processing

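No called member changed direction under the alternatives run, whereas the medians over members against WT cells fell below 0 after quantile normalization (-0.026 for Sirt6-/- and -0.021 for Sirt6-/-RelA-/- cells). For Sirt6-/- against WT cells 11 members were called as reported, 5 with no filter on dim genes, and 4 to 13 when the WT 0 h array or the arrays of 1 time were left out. For Sirt6-/-RelA-/- against Sirt6-/- cells 3 were called as reported. The count was 5 with median centring, 5 with quantile normalization, 5 with an offset of 50 and 5 with an intensity trend and robust prior. It was 1 with a detection value of 50, 1 with no filter, 11 with only the 8 arrays compared, and 1 to 8 over the arrays left out. The median over members was 0.042 as reported and -0.004 after quantile normalization. For Sirt6-/-RelA-/- against WT cells 6 were called as reported, 3 with median centring, 3 with quantile normalization, 3 with a detection value of 50, 2 with no filter, 2 with only the 8 arrays compared, and 2 to 6 over the arrays left out, with 2 without the 6 h arrays and 2 without those of 24 h. The median change at 6 h of TNF-α ranged between -0.001 and 0.127 over the arrays left out. No member was called at any TNF time under the alternatives run. The counts in this section stand without the share of all genes called under the same setting. The cause of these shifts was not tested, except that a lower detection value or no filter adds dim genes to the adjustment. For single genes, 1126 values kept their side of the threshold, 61 lost and 28 gained a call. Changes of direction in values without a call were not counted. The reported fit pairs the genotypes by time through its time term, and no pairing by replicate number could be made, since each genotype and time had 1 array.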
